A study of Homo sapiens with 12 samples.

Results

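Of 24242 genomic regions where FOXA1 was found in every one of 8 chromatin immunoprecipitation sequencing (ChIP-seq) libraries of LNCaP cells, 665 had lower FOXA1 signal wherever the EZH2 inhibitor EPZ-6438 was present. They make up 2.74% of those constitutive regions, which are themselves part of 140968 merged FOXA1 regions. A region was chosen when its log2 signal was lower by at least 0.3 in each of 4 differences: EPZ-6438 minus DMSO in replicates 1 and 2, and EPZ-6438 with P5091 (the combination) minus P5091 alone in replicates 1 and 2. The signal was the normalized tag count, that is the tags in a peak scaled to a library of 10000000 tags, as log2 of the value plus 1, with each library centred on its own median over the 24242 regions. Since these values chose the regions, their fall with EPZ-6438 is given here as a description and no test of it was made. The mirrored rule, at least 0.3 higher in the same 4 differences, held for 760 regions (3.14%), so the centred libraries held about as many regions on the other side.

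LNCaP cells are an established line of human prostate cancer cells that respond to androgen. Endogenous FOXA1 was precipitated after 7 days with 1 µM EPZ-6438 (tazemetostat), with the combination, with 3 µM P5091 (which inhibits USP7, a deubiquitinase) or with DMSO, the solvent, in 2 libraries per group. A separate experiment with an antibody against the HA tag, 5 days after infection, held 1 library each for shFoxA1+K295A and shFoxA1+WT, in which a short hairpin against FOXA1 was combined with HA-tagged FOXA1 that carries the K295A substitution or has the wild-type sequence (WT), and for shFoxA1 alone and the pGIPZ control, which carry no HA-tagged FOXA1 by their labels. The labels do not say whether the replicates were separate cultures, and the p-values therefore speak only of the spread among these libraries, which may be technical. The compounds act on the cells as a whole, and FOXA1 protein and EZH2 activity were not analysed here.

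FOXA1 is a forkhead transcription factor of the luminal prostate epithelium. It is called a pioneer factor because it can bind its motif in compacted chromatin and open it to other factors, among them the androgen receptor. EZH2 is the catalytic subunit of Polycomb repressive complex 2, which methylates histone H3 and is also known to methylate some proteins other than histones. USP7 removes ubiquitin from its substrates and so can protect them from degradation. The series title places these libraries in a study of Polycomb and a deubiquitinating complex as regulators of FOXA1 stability.

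The 8 FOXA1 libraries held 12299238 to 22589685 tags. Combination replicate 1 stood apart, with 30811 peaks and 5.26% of its tags in peaks, against 68504 to 84423 peaks and 18.9% to 21.2% in the other 7 libraries. Its median normalized tag count over the 24242 regions was 15, against 35 to 40.2 in the others. Centring takes out this shift, but the library also decided which regions counted as constitutive. When it was left out of the rule, so that only the other 3 differences had to be met, 1129 of the 24242 regions qualified; these include the 665 by construction.

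At the 665 regions the median normalized tag counts were 37.6 and 36.6 with EPZ-6438 (replicates 1 and 2) and 14.4 and 32.4 with the combination, against 64.6 and 53.3 with P5091 and 69.5 and 58.1 with DMSO. Each library with EPZ-6438 had a lower median than each library without it, an order that the choice of the regions largely set. These counts are not centred, and combination replicate 1 was as low over all 24242 regions (median 15). On the centred log2 scale the median EPZ-6438 minus DMSO difference was -0.59 in replicate 1 and -0.65 in replicate 2, and the median combination minus P5091 difference was -0.69 and -0.58. Over all 24242 regions the same medians were -0.003, -0.042, 0.030 and -0.019. The mean of the 4 differences had a median of -0.67 over the 665 regions, with a range of -1.53 to -0.37.

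Most of these regions were lowered by a moderate amount. The mean difference was at or below -1 at 43 of them, 154 met a limit of -0.5 in all 4 differences, 27 met -0.75, and 4 met -1. For 355 regions the smallest of the 4 falls lay between 0.3 and 0.4, just inside the rule. Each difference had a counting error (1 SE, from the tags behind it) with a median of 0.22 and 0.26 for EPZ-6438 minus DMSO and 0.33 and 0.27 for combination minus P5091. All 4 differences exceeded 2 counting SE at 180 regions, so at the others at least 1 of the 4 was within 2 counting SE. The median region rested on 85 and 45 tags with EPZ-6438 and 23 and 41 with the combination, against 99 and 88 with P5091 and 95 and 100 with DMSO.

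The lowest mean difference was at chr9:110146885-110147285 (hg19, as are all coordinates here; genes and sequence were not analysed). Its normalized tag counts were 55.3 and 26.0 with EPZ-6438 and 18.1 and 18.9 with the combination, against 142.9 and 62.3 with P5091 and 147.7 and 80.1 with DMSO, and the mean of the 4 differences was -1.53. The 4 libraries with EPZ-6438 lay below the 4 without it. Here and below, such an order is of uncentred counts, which were low throughout combination replicate 1, and it follows in part from the choice. Next came chr2:100314106-100314606, with 19.0 and 20.3 with EPZ-6438 and 12.5 and 12.6 with the combination, against 52.2 and 48.4 with P5091 and 77.5 and 48.2 with DMSO (mean difference -1.39). The groups did not overlap here either. At chr13:90956856-90957314 the counts were 12.8 and 16.3 with EPZ-6438 and 8.75 and 14.2 with the combination, against 34.6 and 56.3 with P5091 and 52.7 and 37.7 with DMSO (mean difference -1.36).

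Of the 10 regions with the lowest mean difference, chr3:176477688-176478096 was the strongest in DMSO. It had 97.8 and 63.4 with EPZ-6438 and 37.5 and 52.9 with the combination, against 232.2 and 122.3 with P5091 and 255.2 and 202.6 with DMSO (mean difference -1.34), so it ranked at the 99.6th percentile of constitutive regions in DMSO. Its replicates kept the same order, with every value with EPZ-6438 under 100 and every value without it above. In contrast chr2:99321208-99321608 was weak with EPZ-6438: 27.4 and 9.76 with EPZ-6438 and 18.1 and 14.2 with the combination, against 60.0 and 33.9 with P5091 and 76.8 and 57.5 with DMSO. The value of 9.76 stands for 12 tags, close to the calling threshold of 10 tags in that library. The other 5 of these 10 regions were chr4:176011202-176011612, chr7:72218832-72219246, chr3:100202988-100203463, chr7:91225743-91226140 and chr19:8271453-8271833, with mean differences of -1.31 to -1.24.

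**Figure D1:**
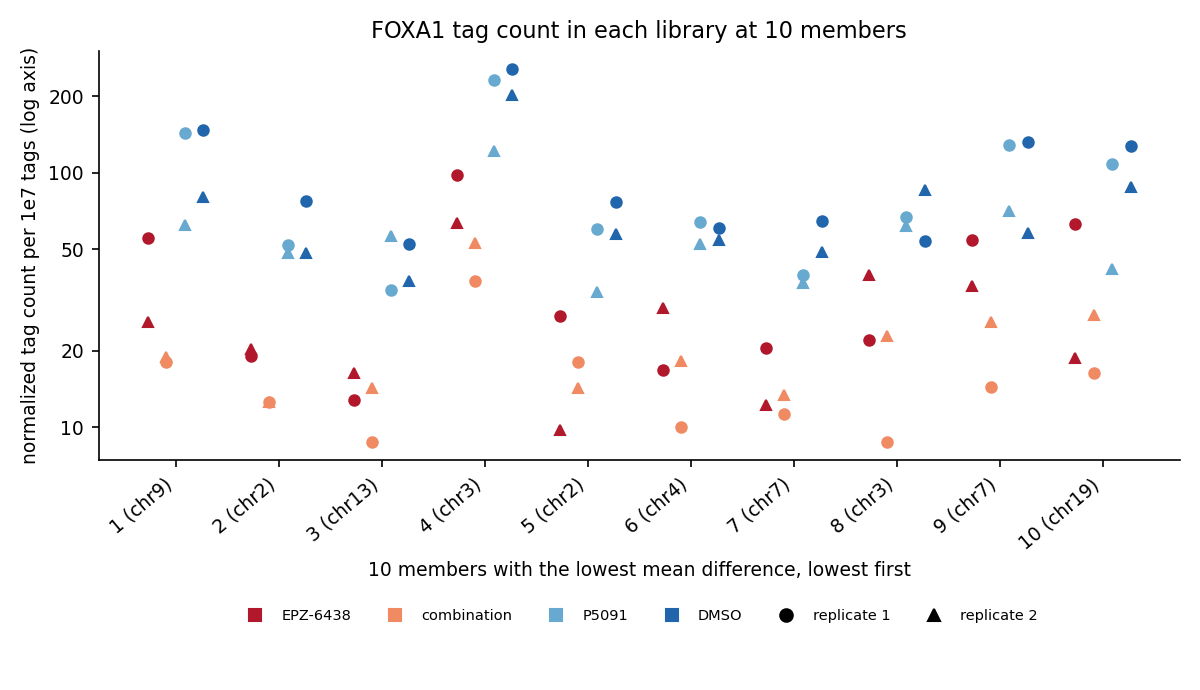
Normalized tag count (tags per 10000000, log axis) of the 10 members with the lowest mean of the 4 differences, ordered along the horizontal axis from the lowest, with a point for each library (colour for the EPZ-6438, combination, P5091 and DMSO groups, circles for replicate 1 and triangles for replicate 2). The points with EPZ-6438 or the combination lie below those with P5091 or DMSO at each of these regions but chr19:8271453-8271833, where EPZ-6438 replicate 1 (62.9) exceeds P5091 replicate 2 (41.8).

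The 5 strongest regions of the set had mean differences of -0.91 to -0.43, on both sides of the median of -0.67 over all members. The member with the most FOXA1 in DMSO was chr14:77500478-77500854, with 242.1 and 191.1 with EPZ-6438 and 93.8 and 157.0 with the combination, against 420.1 and 234.2 with P5091 and 382.5 and 311.7 with DMSO. Its mean difference was -0.66, and it was also the member with the highest signal of HA-tagged WT FOXA1 (173.3 with K295A and 197.7 with WT). At chr16:79921340-79921746 the counts were 159.8 and 141.5 with EPZ-6438 and 57.5 and 133.4 with the combination, against 262.9 and 239.1 with P5091 and 337.1 and 287.9 with DMSO (mean difference -0.91). These sites stayed among the stronger FOXA1 peaks while losing signal. At chr9:128059186-128059632 the counts were 181.1 and 191.1 with EPZ-6438 and 79.4 and 168.1 with the combination, against 247.9 and 245.1 with P5091 and 280.1 and 246.1 with DMSO, a mean difference of -0.43. The remaining pair of the 5 strongest, chr6:154911902-154912313 and chr3:32221694-32222127, had mean differences of -0.63 and -0.61.

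Regions on both sides of the threshold looked alike. Among the 3 members nearest to it, chr3:112126946-112127372 had 31.4 and 46.3 with EPZ-6438 and 9.38 and 39.5 with the combination, against 54.8 and 58.7 with P5091 and 54.8 and 54.0 with DMSO. Its smallest fall rounds to 0.30, as do those of chr1:224330546-224330931 and chr10:3826094-3826466. Just outside lay chr17:81178761-81179183, with 25.7 and 28.5 with EPZ-6438 and 11.3 and 26.0 with the combination, against 50.9 and 33.3 with P5091 and 43.9 and 36.6 with DMSO. Its mean difference of -0.52 and those of chr12:70075936-70076313 (-0.62) and chr11:10244357-10244865 (-0.59), also just outside, lay within the range of the members.

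EPZ-6438 minus DMSO and combination minus P5091 have no library in common, and the overlap of the regions that each of them picks is the count that the rule itself fixes. The shares that follow describe how the rule arrived at the 665 members and are no separate evidence for their fall. Of the 2489 regions (10.3% of all) that were lower by at least 0.3 with EPZ-6438 than with DMSO in both replicates, 665 (26.7%) were also lower by that much with the combination than with P5091 in both replicates, which held for 8.97% of all regions. The opposite, at least 0.3 higher in both, was found at 45 of them (1.81%), against 10.5% of all regions. The median combination minus P5091 difference at the 2489 regions was -0.35 in replicate 1 and -0.25 in replicate 2. Choosing on combination minus P5091 gave 2174 regions, of which 30.6% were lower with EPZ-6438 than with DMSO in both replicates, against 10.3% of all. Read across replicates in the same way, 25.9% of the 2569 regions that met the rule in replicate 1 also met it in replicate 2, against 11% of all regions. These shares moved little when the dependence of each library on mean tag count was taken out (trend removal), at 25.4% against 8.66% for the first choice and 27.6% against 9.39% for the second.

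**Figure D2:**
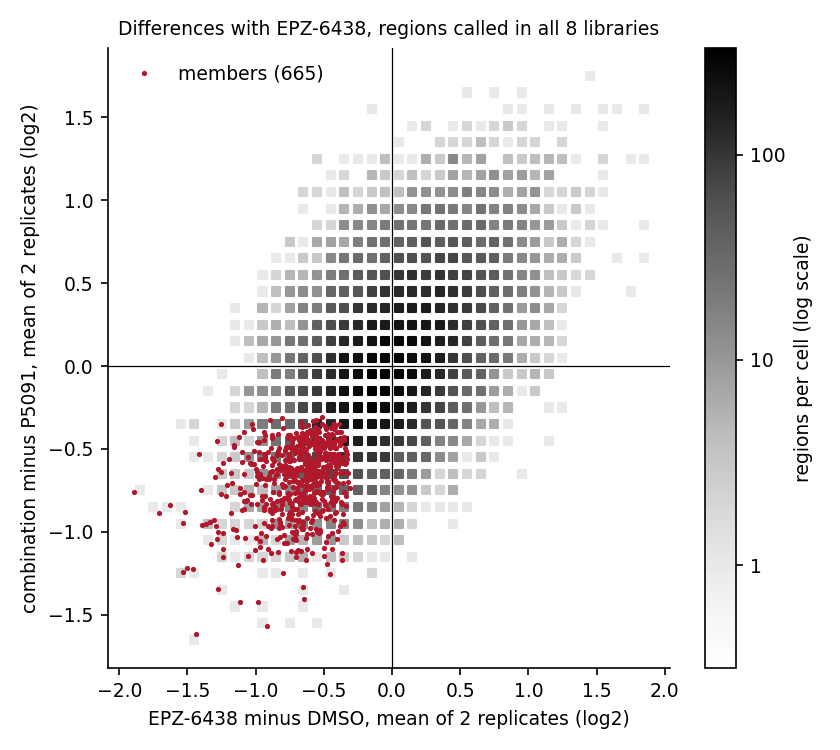
Combination minus P5091 against EPZ-6438 minus DMSO, each the mean of replicates 1 and 2 in centred log2 normalized tag count, with the number of constitutive regions in each cell as shading (log scale) and the 665 members as points. Members fill the lower left, with medians of single differences between -0.69 and -0.58, and the mass of regions is centred near 0.

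No region passed the test for P5091. The members were kept for their differences with EPZ-6438, so the larger size of those differences beside the P5091 values was fixed by the choice. The median P5091 minus DMSO difference over the 665 regions was -0.03 in replicate 1 and -0.19 in replicate 2, and the median combination minus EPZ-6438 difference was -0.14 and -0.12. Over all regions these medians were between -0.03 and 0.03. P5091 minus DMSO shares its DMSO libraries with one difference of the rule and its P5091 libraries with the other, and combination minus EPZ-6438 likewise, so these values are not independent of the choice. With limma over all 24242 regions (4 libraries with P5091 against 4 without it, Benjamini-Hochberg adjustment at 0.05), 0 regions were called, or 0% of those tested, and 315 had an unadjusted p under 0.05, 10 of them members. edgeR on recovered tags called 0, with 364 unadjusted. With the replicate number as a block, limma called 0 (1041 unadjusted, 48 of them members) and so did edgeR (1045 unadjusted, 40 of them members). The share of the 665 members with an unadjusted p under 0.05 was close to that of all 24242 regions without the block. With the block it was above it. The choice used the same libraries, so nothing is read from these shares. The fitted P5091 difference at the 665 regions had a median of -0.12 and ran from -0.60 to 0.57. Its median SE was 0.23 in limma without the replicate block.

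Among the members the widest fitted P5091 differences, named after their values were seen, were a lower value at chr5:153546979-153547373 (-0.60 ± 0.31 SE) and a higher one at chr1:147014493-147014942 (0.57 ± 0.25 SE), both with an adjusted p of 1.00 by limma. These SE values are from the fit without the replicate block and leave out the pairing of libraries by replicate number. The rule used for EPZ-6438, applied to P5091, found 32 lower regions among all (0.132%), 4 of them members (0.602%), and 86 higher regions (0.355%), 1 of them a member (0.150%).

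Whether the difference with EPZ-6438 depended on P5091 was asked with the interaction of the compounds. Of 24242 regions limma called 0 (0%), 249 had an unadjusted p under 0.05 and none of those was a member, and edgeR called 0 (281 unadjusted). With the replicate block limma again called 0 (813 unadjusted, 7 of them members), as did edgeR (828 unadjusted). The median interaction over the 665 regions was -0.02, and over all regions 0.02. In both limma fits the share of the 665 members with an unadjusted p under 0.05 was below that of all 24242 regions. The rule limits both parts of this contrast from above, which narrows it for the members.

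As background to the choice, limma called 38 regions for EPZ-6438 present against absent (0.157% of regions), 15 of them lower (0.0619%), and 14 of those were members. With the replicate block it called 1828 (7.54%), 982 of them lower (4.05%), and 490 of these were members. The rule used this contrast, so nothing is read from these counts.

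The members were strong FOXA1 sites where EPZ-6438 was absent and average ones where it was present. Ranked among the 24242 regions, their median percentile was 55.0 and 47.4 with EPZ-6438 and 46.3 and 42.1 with the combination, against 77.7 and 71.5 with P5091 and 78.8 and 76.1 with DMSO. The regions of the mirrored rule ran the other way, with 39.1 and 47.4 with EPZ-6438 and 46.3 and 51.8 with the combination, against 12.5 and 20.1 with P5091 and 12.9 and 13.1 with DMSO. The rule asks for higher signal in DMSO and P5091 than with EPZ-6438, so the order of the libraries follows in part from the choice. In the HA experiment, whose libraries the rule did not use, the members had a median percentile of 75.5 with shFoxA1+K295A and 74.7 with shFoxA1+WT, and the mirrored regions 23.1 and 23.2. This rank depends on the centring. For WT the median percentile was 59.5 in the list chosen with the trend on mean tag count removed. In the list chosen with centring within bins of the WT signal it was 40, below the middle. That centring by itself takes out a shift along the WT signal.

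**Figure D3:**
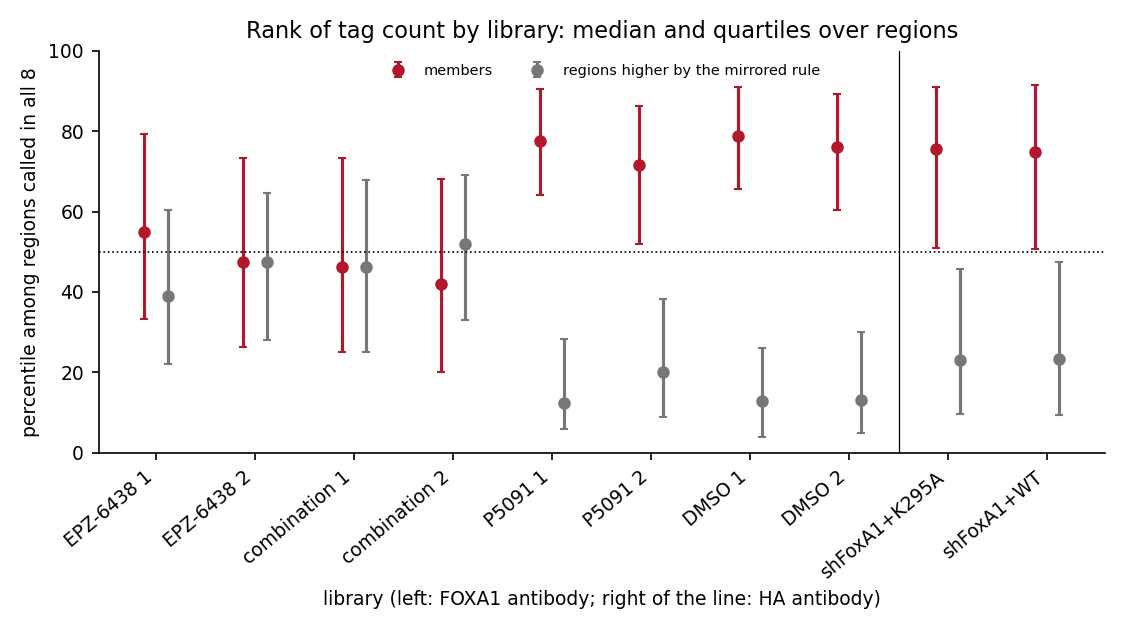
Median percentile of normalized tag count among the 24242 constitutive regions, with quartiles as bars, for the members and the regions of the mirrored rule in each FOXA1 library and in the 2 HA libraries with tagged FOXA1. Members stand at 42.1 to 55.0 in libraries with EPZ-6438 and at 71.5 to 78.8 in the FOXA1 libraries without it, and the HA libraries are at 75.5 (K295A) and 74.7 (WT).

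Nearly all members were bound by tagged FOXA1. A peak of shFoxA1+K295A shared at least 1 base with 645 of the 665 regions (97.0%, 95% exact binomial interval 95.4 to 98.2), against 90.7% of all constitutive regions and 76.7% of the mirrored regions. For shFoxA1+WT it was 649 regions (97.6%, 96.1 to 98.6), against 91.3% and 76.6%. In the list chosen with the trend on mean tag count removed the WT share was 94.1%. With centring within bins of the WT signal it was 84.5%, below the 91.3% of all constitutive regions. That centring treats regions with no WT peak as a bin of their own, so it acts on this share directly. The untagged shFoxA1 and pGIPZ libraries had a peak at 0 of 665 members, which allows a share of up to 0.451%. Over all constitutive regions the shares were 0.0206% and 0.0330%, so a count of 0 is not particular to the members. Intervals and such limits cover counting error only, and each HA condition has 1 library, so these shares have no replicate check.

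At the members with a peak, the median normalized tag count was 40.7 with shFoxA1+K295A and 42.0 with shFoxA1+WT, against 26.4 and 26.7 at all constitutive regions and 17.3 and 18.3 at the mirrored regions. The 2 proteins were nearly level. At the 638 members called with both, K295A over WT gave a median log2 ratio of -0.02, with quartiles of -0.26 and 0.19, and all such regions gave -0.03. K295A was at least 2-fold lower at 4 of these members (0.627%), against 1.18% of the 21121 constitutive regions called with both, and at least 2-fold higher at 1 (0.157%), against 0.952%. After the member with the highest tagged signal, chr14:77500478-77500854, came chr3:71257809-71258241, with 153.7 for K295A and 177.1 for WT. In the FOXA1 libraries it had 105.4 and 118.7 with EPZ-6438 and 38.8 and 88.4 with the combination, against 142.2 and 158.0 with P5091 and 168.9 and 164.9 with DMSO. The next was chr7:12260266-12260657, with 110.7 for K295A and 176.3 for WT.

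Members with a peak of neither tagged protein numbered 9 (1.35%, against 5.07% of all constitutive regions). The strongest of them in DMSO was chr5:150674670-150675060, with 22.6 and 30.9 with EPZ-6438 and 12.5 and 29.2 with the combination, against 57.4 and 46.6 with P5091 and 49.0 and 48.8 with DMSO. Its 4 values with EPZ-6438 all lay below its 4 values without it. The next were chr16:52631592-52632006 and chr14:107253510-107253886, with mean differences of -0.77 and -0.60.

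The share of constitutive regions that were members rose with the signal of tagged WT FOXA1. It was 0.760% of the 2104 regions with no WT peak, 1.17% in the lowest of 10 equal bins by WT signal and 7.77% in the highest (interval 6.69 to 8.96). The share of mirrored regions ran the opposite way, at 8.46% with no WT peak and 0.361% in the highest bin. All regions shifted along the same axis: the median of their mean difference was 0.20 with no WT peak and -0.21 in the highest bin. The gradient of the members therefore depends on the centring. With the trend of the libraries on mean tag count taken out, the shares were 1.62% with no WT peak and 3.88% in the highest bin. With libraries centred within the WT bins they were 3.75% and 1.85%, so the direction turned round. The latter centring gives each library the same median in every bin. It thus takes out a shift along the WT signal by construction, and nothing is read from the reversal. Within the 649 members with a WT peak, Spearman rho of the WT signal and the mean difference was 0.046. Over the 22138 constitutive regions with a WT peak it was -0.29. The rule cut the mean differences of the members to a range of -1.53 to -0.37, against -1.53 to 1.67 over all regions. This cut limits what rho can show within the members, so nothing is read from the contrast. The shares and rho values are descriptions across regions, which share libraries and are not independent.

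**Figure D4:**
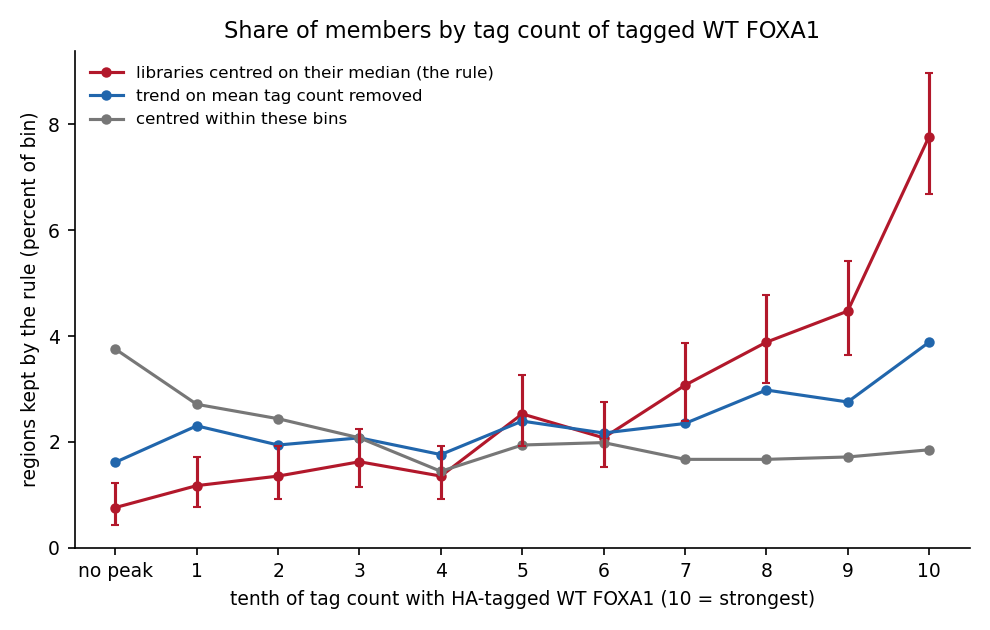
Percentage of constitutive regions that are members, by signal of tagged WT FOXA1 (no WT peak, then 10 equal bins from low to high), under the centring of the rule with 95% exact intervals, and with the trend on mean tag count removed or with centring within the bins. The share climbs to 7.77% in the highest bin under the rule, to 3.88% with the trend removed, and to no more than 3.75% with centring within bins, where the maximum is at regions with no WT peak.

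Peak centres shifted about as little at the members as at constitutive regions in general. The median distance between the peak centres of EPZ-6438 and DMSO was 22 and 20 bases in replicates 1 and 2, against 22.5 and 19 for all. Members had a median width of 406 bases, against 409 bases for all. Each library has a single peak size, so these widths do not measure the shape of the peaks. The enrichment of each peak over its local window, the deposited fold, had medians of 19.4 and 24.1 with EPZ-6438 and 12.8 and 22.9 with the combination, against 29.3 and 31.1 with P5091 and 30.4 and 33.2 with DMSO. Over all constitutive regions these medians were 21.4 and 28.5, 14.1 and 28.9, 23.3 and 27.4, and 24.1 and 27.2 in the same order. The local fold comes from the same tags and moved with the tag count. Input libraries, 1 per treatment, moved far less. Input tags per region, relative to the other constitutive regions, were 0.925 with EPZ-6438 (95% counting interval 0.881 to 0.972) and 0.929 with the combination (0.875 to 0.987), against 0.980 with P5091 (0.931 to 1.03) and 0.994 with DMSO (0.941 to 1.05). The part of this input difference in the lower FOXA1 signal was not tested.

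The members were spread over all autosomes and both sex chromosomes, and 4 lay on unplaced or random contigs. Chromosome 1 held 61, chromosomes 3 and 6 held 59 each, and chromosome 5 held 50. Over the 23 chromosomes with at least 100 constitutive regions, the share of members ran from 1.20% on X to 4.32% on chromosome 21. Only the interval of chromosome 6 (3.67%, 2.81 to 4.71) left out the overall 2.74%. No adjustment was made for looking at 23 intervals, so chromosome 6 is not read as an exception.

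Members lay closer to other constitutive regions, and more often beside another member, than constitutive regions in general. The median distance to the nearest other constitutive region was 22567 bases for members (95% interval 20003 to 26461), against 31793 bases for all and 50140 bases for the mirrored regions. Another member lay within 50 kb of 83 members (12.5%, interval 10.1 to 15.2), against 3.81% of all constitutive regions, and within 10 kb of 14 members (2.11%), against 0.846%. A mirrored region lay within 50 kb of 1.80% of members, against 2.35% of all. The nearest constitutive region was itself a member for 56 of 664 members (8.43%, 6.43 to 10.8; the remaining member had no other constitutive region on its contig), against 2.81% of all. Nearness is mutual, and the 83 members with another within 50 kb formed 41 chains. The exact intervals for nearness to another member treat members as independent and are therefore too narrow.

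This nearness was smaller under other centrings. The median distance to the nearest other constitutive region was 26619 bases in the list with the trend on mean tag count removed. It was 27181.5 bases with quantile normalization, and both lay above the interval for the members. For the list centred within the WT bins it was 24975 bases. All of these were below the 31793 bases of all constitutive regions. With the trend on mean tag count removed, another member lay within 50 kb of 7.60% of the members so chosen, against 3.21% of all regions, and with centring within the WT bins of 6.26%, against 2.91%. Under the limit of -0.5 the nearest constitutive region was a member in 0.649% of cases, against 0.652% of all, and another of the 154 regions that met it lay within 50 kb of 2.60% of them, against 0.862% of all.

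**Figure D5:**
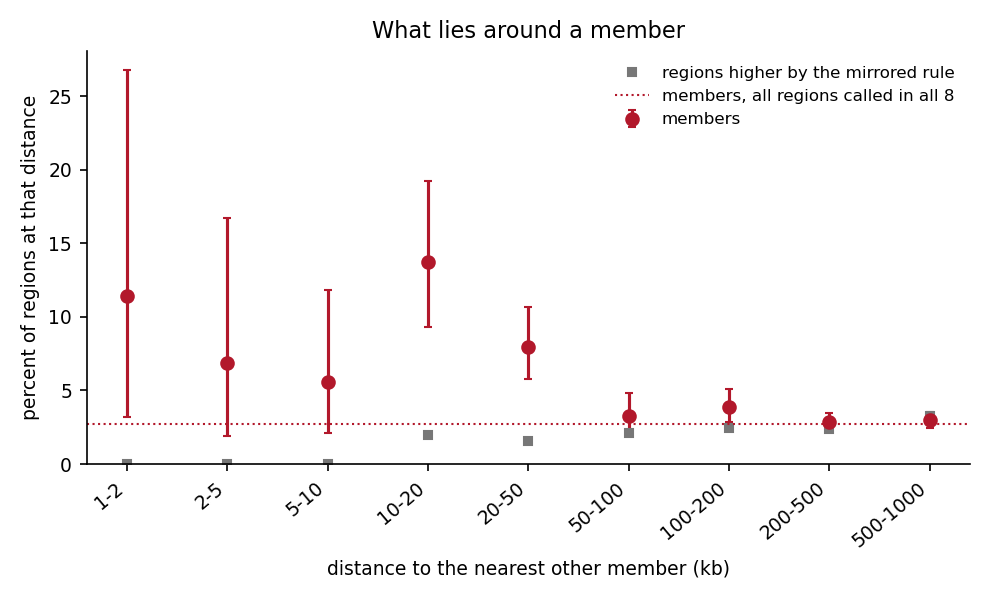
Percentage of constitutive regions that are members or follow the mirrored rule, by distance to the nearest other member (kb, in distance classes; classes with under 20 regions left out), with 95% exact intervals for members and a dotted line at 2.74%, their share of all constitutive regions. Members make up 13.7% of regions at 10 to 20 kb, 7.96% at 20 to 50 kb and 3.26% at 50 to 100 kb, and the classes within 10 kb hold 0% mirrored regions. The intervals treat regions as independent, although members near each other count each other, and are therefore too narrow.

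Around the members, other members were more frequent at 10 to 50 kb than farther away. Of the 204 constitutive regions whose nearest other member was 10 to 20 kb away, 28 (13.7%) were members, and the share was 7.96% at 20 to 50 kb and 3.26% at 50 to 100 kb. Within 10 kb the classes were small and the share did not rise steadily. Members were 0 of 5 regions at 0 to 1 kb, 4 of 35 at 1 to 2 kb, 4 of 58 at 2 to 5 kb and 6 of 107 at 5 to 10 kb. Of these intervals only that at 1 to 2 kb left out the overall 2.74%. Regions with a peak called only where EPZ-6438 was absent were also somewhat more common near members. A missing call is not a measured loss of signal. Members also had closer neighbours in general (22567 against 31793 bases), and the part of this in the shares was not tested. Of 728 regions called in all 4 libraries without EPZ-6438 and in none of 3 with it (combination replicate 1 left aside), at least 1 lay within 50 kb of 5.11% of members (interval 3.57 to 7.07), against 3.22% of all constitutive regions. For the 1172 regions called in those 3 libraries and in none of the 4 without EPZ-6438, the shares were 3.46% (2.20 to 5.14) and 4.10%.

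Members within 50 kb of each other formed 41 chains that held 83 members, and 582 stood alone. The single chain of 3 lay at chr7:89791010-89843297, where the 3 members were the only constitutive regions in 52.3 kb. Its first region, chr7:89791010-89791416, had 44.3 and 65.9 with EPZ-6438 and 17.5 and 47.3 with the combination, against 79.6 and 86.5 with P5091 and 69.5 and 81.9 with DMSO. Its middle region, chr7:89809405-89809809, had 26.6 and 22.0 with EPZ-6438 and 11.3 and 26.8 with the combination, against 39.8 and 53.3 with P5091 and 56.3 and 44.1 with DMSO. The last, chr7:89842838-89843297, had 69.5 and 54.5 with EPZ-6438 and 23.1 and 47.3 with the combination, against 120.0 and 75.7 with P5091 and 111.9 and 80.1 with DMSO. All 3 had separate ranges with and without EPZ-6438, which the choice of the regions favours. Their mean differences were -0.62, -0.82 and -0.69 in that order.

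The chain with the lowest median difference was a pair 9.74 kb apart that includes chr7:72218832-72219246, one of the 10 lowest regions. That region had 20.4 and 12.2 with EPZ-6438 and 11.3 and 13.4 with the combination, against 39.8 and 36.9 with P5091 and 64.4 and 48.8 with DMSO. Its partner, chr7:72209081-72209513, had 22.1 and 15.4 with EPZ-6438 and 8.75 and 26.0 with the combination, against 49.6 and 52.0 with P5091 and 54.8 and 41.8 with DMSO. The region with the lowest mean difference of all, chr9:110146885-110147285, also had a member 48.1 kb away, at chr9:110195000-110195395, with a mean difference of -0.47.

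The nearest members to each other were chr3:58149822-58150206 and chr3:58150939-58151310, 1.11 kb apart. The first had 41.6 and 23.6 with EPZ-6438 and 18.1 and 21.3 with the combination, against 65.2 and 63.5 with P5091 and 81.2 and 66.2 with DMSO. The second had 62.4 and 31.7 with EPZ-6438 and 20 and 29.2 with the combination, against 102.4 and 42.4 with P5091 and 88.5 and 37.2 with DMSO. Within this pair the first was lower by more, with mean differences of -1.07 and -0.52, and the second overlapped between groups because EPZ-6438 replicate 1 exceeded P5091 and DMSO replicate 2. The next nearest pairs were on chromosome 1, at chr1:192976919-192977418 and chr1:192978467-192978900 (1.51 kb apart, mean differences -0.60 and -0.70), and on chromosome 11, at chr11:73849491-73849913 and chr11:73852438-73852902 (2.97 kb apart, -0.61 and -0.63).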

How the data were processed

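The values are peak lists made by the authors in each of 12 libraries. The tools were Bowtie2 and HOMER 4.2 with the build hg19, per the submitters' processing notes. The authors called peaks at 4-fold or more over a 10 kb window, with a false discovery rate of 0.001, and for FOXA1 also over 1 input per treatment, per the file headers. The deposited normalized tag count is a signal value per 10000000 tags. The deposited fold, over the local window or over input, is a ratio given by the peak caller. Input tags were taken from the deposited count of control tags per peak. The deposited total tag count, the findPeaks score, the focus ratio (a fraction) and the p-value per peak were used at most to check, describe or filter peaks.

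FOXA1 peaks that shared at least 1 base were merged, and each library received its highest peak in a region. limma 3.58.1 (trend on, R 4.3.3) was fitted to all 24242 regions with 4 groups, centred libraries and Benjamini-Hochberg adjustment at 0.05. edgeR 4.0.16 was run on tags recovered from normalized tag counts and library totals, 100% of which were whole within print rounding. Fits, merging and overlaps were tested on simulated data with known answers. Shares have exact (Clopper-Pearson) intervals at 95%, and a count of 0 allows 3 counts of the total.

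The members, lists and tests were chosen with earlier results of these data known. Named regions are the 10 lowest by mean difference, the 5 strongest in DMSO, 3 on each side of the threshold, the 3 nearest pairs, 3 with no HA peak, the 3 highest by tagged WT signal, and those of the chains described, which were chosen after their values were seen. Replicate numbers come from the titles. Deviations of same-numbered libraries from their group means correlated at 0.148 to 0.488 in all 6 group pairs, and fragments measured 274 to 278 bases in all 4 libraries numbered 1, against 216 to 230 in those numbered 2, per the file headers, so the numbers pair the libraries. Alternatives were other thresholds, centrings, pseudocounts, peak values, region sets, tools, the replicate block and leaving out libraries. Genes and motifs at the regions were not analysed here.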

Additional observations from a re-analysis of the deposited data

How the results depend on the processing

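The number of regions called for P5091 was 0 and that for the interaction 0 under every alternative run, except that with the replicate block and without combination replicate 2 P5091 had 2, so its leave-one-out range was 0 to 2. In 2 settings the libraries were not level. Among regions called in at least 4 libraries the median difference over all regions was 0.61 for P5091, 1.28 for the interaction and 0.54 for EPZ-6438. Without centring these medians were -0.32, -0.60 and -0.38. A count of 0 in these settings therefore says little. For EPZ-6438 present against absent (38 regions), the replicate block gave 1828, and edgeR with the block 1928. With the block, the count was 1359 with the trend on mean tag count removed, 843 with centring within bins of the tagged WT signal, 1073 with quantile normalization and 0 without centring. Without the block it was 0 with no centring, with quantile normalization, among the regions with mean tag count above the median and among regions called in at least 4 libraries, with 2155, 2931, 1693 and 5358 at an unadjusted p under 0.05. Leaving out 1 library gave 0 to 2690. Without the block the highest such count was 649, without P5091 replicate 2. The causes were not tested. edgeR without the block (57) and a pseudocount of 5 (43) gave similar counts.

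The list itself held 1220 regions at a limit of -0.2, 570 with a pseudocount of 5, 565 with quantile normalization, 1519 without centring, 579 with the trend removed and 511 with centring within bins. The last 2 were added after seeing the data and shared 450 (67.7%) and 378 (56.8%) of the 665 members. A WT peak lay at 94.1% and 84.5% of those lists, and their median percentile of WT signal was 59.5 and 40, against 74.7 for the 665 members, and 91.3% of all constitutive regions have a WT peak. Only regions called in all 8 libraries could enter, so sites that lost their peak are outside the list. Combination replicate 1 had the lowest share of tags in peaks (5.26%) and a median of 23 tags at the members, which limits single regions most. The lowest number of tags at any member, taken in each library separately, was 11 in both combination libraries.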
